A study of Mus musculus with 8 samples.

Results

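The genes described here encode the coactivators CBP (Crebbp) and p300 (Ep300), the transcription factors Creb1, Crem, Atf1, Atf2 and Atf4, the CREB coactivator Crtc2, and the kinases RSK1 (Rps6ka1) and RSK2 (Rps6ka3). They are 10 of the 21938 protein-coding genes that GENCODE M21 places on the autosomes and the X and Y chromosomes. They were chosen by name, as known partners of nuclear FGFR1 and as factors of the cyclic AMP response element (CRE), and not by any measured value. Earlier results of these data were, however, known when the choice was made. The data give binding to the DNA of these genes and say nothing of the proteins the genes encode.

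ChIP-seq peak lists were examined from 8 libraries. All came from E14Tg2a, a line of mouse embryonic stem cells (ESCs), between passages 37 and 40. Pluripotent ESCs kept with leukemia inhibitory factor (LIF) gave 1 library each for FGFR1, RXR and Nur77. Monolayers without LIF, treated for 48 h with 1 µM retinoic acid (RA) to give neuronal cells (NCs), provided 2 libraries for FGFR1 and 1 each for RXR, Nur77 and the histone variant H3.3. The cells came from a single line, several plates were pooled for each ChIP, and the peak calling commands named no control library. H3.3 was not measured in LIF. The labels do not say that the 2 FGFR1 libraries in RA came from separate cultures beyond naming replicate 2 a second experiment. With 1 library in every other group, no difference between ESCs and NCs could be tested, and binding in fewer cells cannot be told apart from less binding per cell.

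CREB, its relatives Crem and Atf1, and the more distant Atf2 and Atf4 are leucine-zipper proteins. CREB, Crem and Atf1 bind the CRE, and phosphorylation by protein kinase A, RSK or related kinases lets CREB recruit CBP or p300. Both coactivators acetylate histones and serve many transcription factors, nuclear receptors among them. Crtc2 binds the leucine zipper of CREB in a way that does not need this phosphorylation. Nuclear FGFR1 has no DNA-binding domain of its own and is known to associate with CBP and RSK1.

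A promoter peak is one that covers at least 20 bp of a window from 5000 bp upstream to 1000 bp downstream of any transcript start of the gene. A gene-body peak covers at least 20 bp of the rest of the gene. Each peak carries a fold value, the fragment pileup at the summit over the local background with a pseudocount, and a −log10 p that MACS2 computed from the same quantities. Solving both for each peak returned the number of fragments at the summit. It ranged, at promoter peaks of the 10 genes, from 7 to 139. Intervals given with these numbers are exact 95% Poisson intervals and cover counting error only. The libraries differed in depth. Because −log10 p moves with depth, its values are comparable within a list rather than between lists. The genome-wide background ran from 1.27 fragments per kb in H3.3 to 7.09 in RXR in LIF, and was 2.71 for FGFR1 in LIF, 4.16 for replicate 1 in RA and 6.78 for replicate 2.

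Sequences of 7 stretches are shown, read from the GRCm38 genome (the same build as mm10) and written on the strand of the gene. In the first 4 lines capitals mark the word TGACG, the core of the CRE palindrome, or its reverse complement CGTCA. They are the Crebbp site that FGFR1 occupied in both states (chr16:4214057-4214345, upstream of the gene), the bases just before the first Atf1 start (chr15:100227669-100227818), those just before the first Atf4 start (chr15:80255034-80255183), and 30 bases in the 5′ untranslated exon of Creb1 around the FGFR1 summit in LIF (chr1:64532908-64532937). The Atf2 line is the upstream FGFR1 peak of replicate 1 (chr2:73892940-73893047) with its 13 CG dinucleotides in capitals. The last lines are the intronic Creb1 site (chr1:64580601-64580846) and the upstream Crtc2 site (chr3:90253723-90253894), where capitals mark alternating purine and pyrimidine runs of at least 20 bp.
Crebbp upstream: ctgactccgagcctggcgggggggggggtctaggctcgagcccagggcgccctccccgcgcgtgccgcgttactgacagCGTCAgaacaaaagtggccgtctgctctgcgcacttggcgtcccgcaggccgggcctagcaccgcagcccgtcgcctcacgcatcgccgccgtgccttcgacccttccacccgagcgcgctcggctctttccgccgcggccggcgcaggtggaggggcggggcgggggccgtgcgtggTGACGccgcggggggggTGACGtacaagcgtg
Atf1 upstream: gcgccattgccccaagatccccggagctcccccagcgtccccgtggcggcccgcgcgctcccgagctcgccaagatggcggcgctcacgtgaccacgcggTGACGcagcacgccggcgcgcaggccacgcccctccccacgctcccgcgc
Atf4 upstream: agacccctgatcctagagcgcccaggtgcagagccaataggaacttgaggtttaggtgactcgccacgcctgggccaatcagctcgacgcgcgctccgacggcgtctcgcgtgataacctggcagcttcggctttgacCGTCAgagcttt
Creb1 exon: agTGACGcggcggaggtgtagttTGACGcg
Atf2 upstream: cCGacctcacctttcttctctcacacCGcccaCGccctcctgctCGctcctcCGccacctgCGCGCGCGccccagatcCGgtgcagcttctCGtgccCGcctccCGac
Creb1 intron: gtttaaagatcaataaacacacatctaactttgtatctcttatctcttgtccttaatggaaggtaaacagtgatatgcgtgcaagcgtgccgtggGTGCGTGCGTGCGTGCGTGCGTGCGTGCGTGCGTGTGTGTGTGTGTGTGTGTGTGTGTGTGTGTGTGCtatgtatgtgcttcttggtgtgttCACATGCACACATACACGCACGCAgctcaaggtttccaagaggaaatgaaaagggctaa
Crtc2 upstream: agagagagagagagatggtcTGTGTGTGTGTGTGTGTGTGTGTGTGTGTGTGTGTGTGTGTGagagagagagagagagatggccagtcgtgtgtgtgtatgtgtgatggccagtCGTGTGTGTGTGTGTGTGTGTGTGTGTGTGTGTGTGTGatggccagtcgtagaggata

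In NCs, FGFR1 had a promoter peak at all 10 genes in both libraries, whereas in ESCs it had one at 6 of 10 (Crebbp, Ep300, Creb1, Crem, Atf4 and Crtc2). Among all protein-coding genes the share with such a peak was 19.6% in LIF, 55.9% in replicate 1 and 51.5% in replicate 2. Genes with an FGFR1 promoter peak in both RA libraries were 10 of 10, against 42.5% of all genes. The peaks of both RA libraries shared at least 1 bp at 10 of 10, against 35.6%. An FGFR1 promoter peak in LIF and in both RA libraries was found at 6 of 10, against 16.5% of all genes. The 6 genes bound in LIF were thus all bound in RA, and Atf1, Atf2, Rps6ka1 and Rps6ka3 had FGFR1 promoter peaks in RA but not in LIF.

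RXR went the other way in the count. It had a promoter peak at 9 genes in LIF (46.4% of all genes), missing only Rps6ka3, and at 5 in RA (26.1%), namely Ep300, Atf1, Atf2, Atf4 and Crtc2. Nur77 had one at 6 genes in LIF (29.7%) and at 7 in RA (30.9%), with 4 genes (Creb1, Crem, Atf1 and Atf4) in both states. H3.3 in RA had one at 3 genes, Atf1, Atf4 and Crtc2 (17.9%). The share of the 10 genes was above that of all genes in each library, but their promoter windows were also longer, with a median of 22655 bp against 8823 bp over all genes, because several have many alternative starts. With windows of 1000 bp on either side of each start, FGFR1 was found at 6 genes in LIF (17% of all genes) and at 10 in each RA library (50.7% and 49.6%). RXR was then found at 9 and 4 genes (42.5% and 23.3%). These shorter windows, too, cover more sequence at genes with many separate starts, such as Crem with 26. The shares of all genes also include genes that are not expressed. The paper reported that most bound proximal promoter sites belonged to expressed genes, and expression was not examined here. The lists also differed in length, and with each cut to its 10634 strongest peaks RXR was at 4 genes in LIF and 4 in RA (17.1% and 15.1% of all genes), while FGFR1 was at 6 genes in LIF (18%) and, in RA, at 7 for replicate 1 (20.6%) and 9 for replicate 2 (44.6%). Nur77 fell to 1 gene in LIF (13%) and 3 in RA (11.3%). Among peaks with a −log10 p of at least 10, Nur77 was at 1 gene in LIF (15.3%) and 4 in RA (18%).

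**Figure D1:**
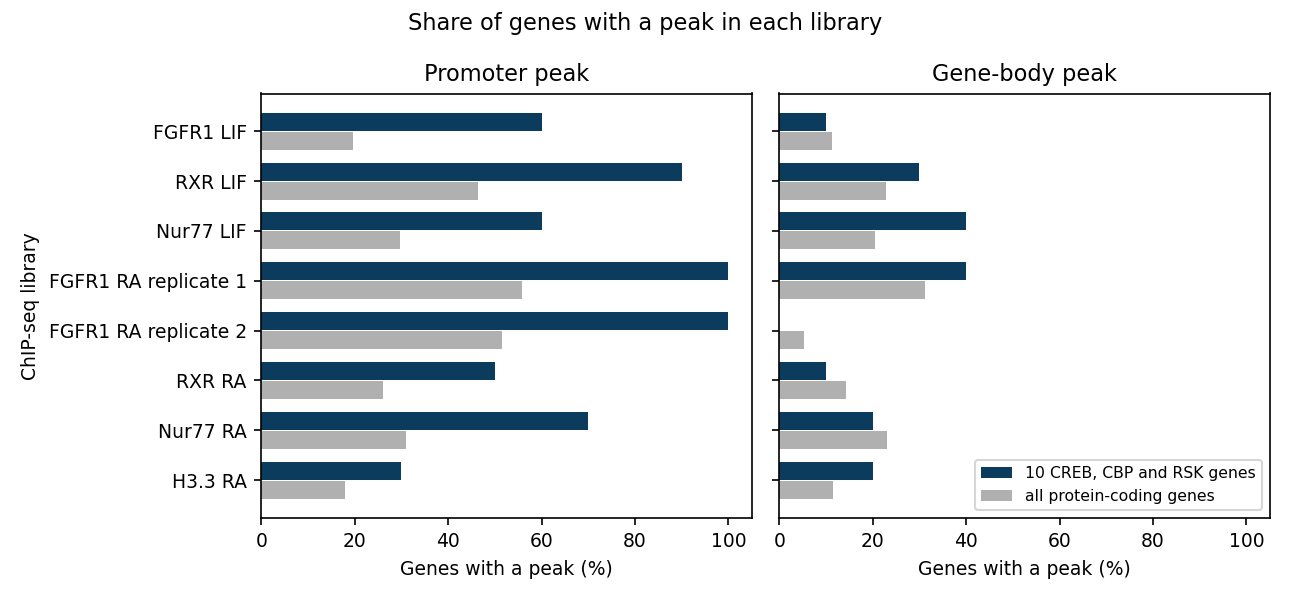
Share of genes, in percent, with at least 1 promoter peak (left) or gene-body peak (right) in each of the 8 libraries, for the 10 genes (dark bars) and for all 21938 protein-coding genes (grey bars). The promoter bars of the 10 genes lie above the grey bars in each library, reaching 10 of 10 genes in both FGFR1 RA libraries, while their gene-body bars lie below the grey bars in FGFR1 LIF, FGFR1 RA replicate 2, RXR RA and Nur77 RA.

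Genes bound in both states were next compared by place. Of the 6 genes with FGFR1 promoter peaks in LIF, 6 had an RA peak of replicate 1 that shared a base with the LIF peak, against 84.4% of all genes with both. For replicate 2 the number was 5 of 6 (83.8%), the exception being Crtc2. For RXR it was 4 of 5 (79.4%), and for Nur77 3 of 4 (67.9%). These shares were close to those of all genes. Peaks of the 10 promoters joined into 28 sites, of which 15 were occupied in LIF and RA, 4 in LIF only and 9 in RA only. Atf4 was the single gene with promoter peaks in all 8 libraries, a pattern that 3.68% of all genes had.

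FGFR1 peaks were next set against RXR and Nur77 in the same cells. In LIF, 6 of the 7 FGFR1 promoter peaks of these genes shared at least 1 bp with an RXR or Nur77 peak, as did 72.9% of FGFR1 promoter peaks of all genes. In RA the numbers were 8 of 18 for replicate 1 (38.7% over all genes) and 6 of 16 for replicate 2 (37.6%). The single LIF peak without either receptor lay at the upstream Crtc2 site. Over all genes, too, the share was lower in RA than in LIF.

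**Figure D2:**
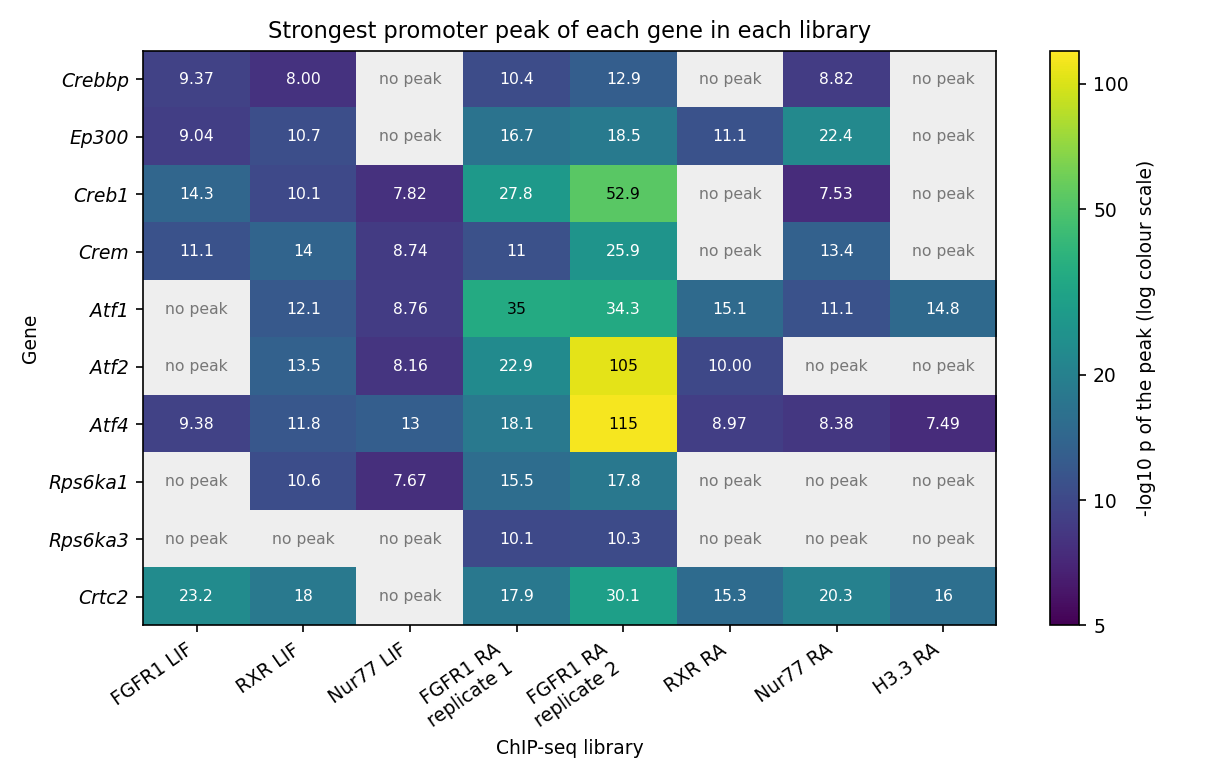
The −log10 p of the strongest promoter peak of each gene (rows) in each library (columns), printed in each cell and coloured on a log scale, with grey cells where the list holds no promoter peak. Values range from 7.49 to 115, the 2 highest being Atf4 and Atf2 in FGFR1 RA replicate 2, and Rps6ka3 has values in the FGFR1 RA libraries alone.

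The coactivator genes come first. Crebbp (ENSMUSG00000022521.10, chr16:4081328-4213997, minus strand) encodes CBP. Its promoter was marked by 1 site upstream of the gene, the first of the printed sequences, where all 3 FGFR1 libraries had their only Crebbp promoter peak. The −log10 p there was 9.37 for FGFR1 in LIF, 10.4 for replicate 1 and 12.9 for replicate 2 in RA. RXR in LIF reached 7.57 and Nur77 in RA 8.82 at the same site, and RXR in RA, Nur77 in LIF and H3.3 had no promoter peak of Crebbp. RXR in LIF had 2 further peaks, of 8.0 at an internal start and 6.48 in an untranslated exon. These are weak peaks within their lists, since 68.3% of the genes bound by FGFR1 in LIF, 76.1% in replicate 1 and 84.5% in replicate 2 had a stronger one. The summits of FGFR1 in LIF, RXR in LIF and replicate 2 lay 194, 197 and 207 bp upstream of the first start. The summit of replicate 1, 87 bp upstream, was 2 bp from the middle of one TGACG word, and that of Nur77 in RA, 279 bp upstream, was 12 bp from another.

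Ep300 (ENSMUSG00000055024.12, chr15:81585351-81652077, plus strand) encodes p300. FGFR1 occupied a pair of sites in its first, untranslated exon in both states. At the first (chr15:81585364-81585632) the −log10 p was 9.04 in LIF, 10.8 in replicate 1 and 18.5 in replicate 2. At the second (chr15:81586205-81586405) it was 7.82, 16.0 and 9.16 in the same order. The RA replicates thus ranked these neighbouring sites in opposite order, but the counting intervals of the sites overlapped within each replicate. Replicate 1 had 11 fragments (5.49 to 19.7) at the first and 15 (8.40 to 24.7) at the second. Replicate 2 had 28 (18.6 to 40.5) and 18 (10.67 to 28.45). RXR covered both in LIF (8.57 and 8.61) and the second in RA (11.1). Its strongest peak in LIF (10.7) lay between the pair, at chr15:81585980-81586079, and the strongest of replicate 1 (16.7) lay at an internal start, at chr15:81633868-81633960. Nur77 had no promoter peak in LIF, and in RA it had peaks at internal starts only, 1 in a coding exon (12.7) and 1 in an intron on a 59 bp alternating run (22.4). The first exon is not clear of other annotation. Starts of the miRNA gene Gm23880 and of the unclassified transcript 1110025M09Rik lie within 1000 bp of the summits, so the peaks cannot be given to Ep300 alone.

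The factors that bind the CRE as CREB itself does were all occupied at their main starts. Creb1 (ENSMUSG00000025958.14, chr1:64532645-64604548, plus strand) carried 1 site at its 5′ end in 6 libraries (chr1:64532556-64533077). FGFR1 there had a −log10 p of 14.3 in LIF, 27.8 in replicate 1 and 52.9 in replicate 2. RXR in LIF had 9.01 at this site and 10.1 at a second, 552 bp upstream of the first start. Nur77 had 7.82 in LIF and 7.53 in RA. The summits of all 6 libraries fell within 25 bp of an annotated start. Among the antibodies FGFR1 had the highest −log10 p at this site in each state, though between libraries of unlike depth. Its summit held 13 fragments (95% interval 6.92 to 22.2) in LIF, 22 (13.8 to 33.3) in replicate 1 and 61 (46.7 to 78.4) in replicate 2. RXR in RA and H3.3 had no promoter peak of Creb1.

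Crem (ENSMUSG00000063889.16, chr18:3266048-3337748, minus strand) encodes activators and, from an internal promoter, the inducible repressor ICER. It had 5 separate promoter windows, and peaks were found only in the first, at the 5′ end. One site there was occupied in 6 libraries. The −log10 p was 11.1 for FGFR1 in LIF, 11 in replicate 1 and 25.9 in replicate 2. RXR in LIF reached 14.0, Nur77 8.74 in LIF and 13.4 in RA. The internal windows, beginning 10157, 27848, 38189 and 55979 bp into the gene, held no peak in any library. The processed transcript Gm6225 starts within 1000 bp of these summits.

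Atf1 (ENSMUSG00000023027.13, chr15:100227819-100261244, plus strand), whose protein can dimerise with CREB, was bound in 7 libraries but not by FGFR1 in LIF. In RA, FGFR1 had its strongest peak here in replicate 1 among the 10 genes, with a −log10 p of 35 on 29 fragments (19.4 to 41.7), and 34.3 on 41 fragments (29.4 to 55.6) in replicate 2. Of the genes bound in these lists, 2.07% had a stronger peak in replicate 1 and 31.8% in replicate 2. RXR had 12.1 in LIF and 15.1 in RA, Nur77 8.76 in LIF and 11.1 in RA, and H3.3 14.8. The summits nearest the start lay close together in most libraries. They were 46 bp upstream of the first start for both RXR in RA and H3.3, 54 bp for replicate 1, 63 bp for RXR in LIF and 75 bp for Nur77 in RA, with replicate 2 at 144 bp. Nur77 in LIF lay apart, with its only summit 175 bp downstream of the first start. The TGACG word of the printed Atf1 sequence is 48 bp upstream, 2 bp from the RXR and H3.3 summits in RA.

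Atf2 (ENSMUSG00000027104.18, chr2:73816509-73892639, minus strand) encodes a factor activated by the stress kinases p38 and JNK. FGFR1 had no peak in LIF. In replicate 2 its 5′ exon held a peak with a −log10 p of 104.8 on 111 fragments (91.3 to 134), rank 152 in that list, which overlapped the RXR peak in LIF (13.5) and no peak of replicate 1. Both replicates shared the upstream site (chr2:73892882-73893171), with 22.9 in replicate 1 and 38.2 in replicate 2 and summits 364 and 363 bp upstream of the nearest start. Nur77 in LIF had 8.16 at the same site. These upstream summits lie within 16 bp of the start of the lincRNA Gm10822, on which the peaks could equally be placed. RXR in RA was counted at Atf2 through a peak 4991 bp upstream of an internal start (10.0), at the edge of the window. Peaks of RXR in LIF (10.5) and replicate 1 (15.1) at the same place fell just outside and were counted in the gene body.

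Atf4 (ENSMUSG00000042406.8, chr15:80255184-80257541, plus strand), the effector of the integrated stress response, had 1 promoter site (chr15:80254842-80255768) that was bound in all 8 libraries. FGFR1 had a −log10 p of 9.38 in LIF, 18.1 in replicate 1 and 114.8 in replicate 2. RXR had 11.8 in LIF and 8.97 in RA, and Nur77 13.0 in LIF and 8.38 in RA. H3.3, the list with the lowest background, had 7.49 on 7 fragments (2.81 to 14.4). The site, 927 bp long, contained 4 TGACG words. The nearest was 55 bp from a summit, and none lay in the 100 bp around one. All summits lay in the untranslated first exon, between 252 and 461 bp from the first start, and within 122 bp of an annotated start. In replicate 2 the summit held 139 fragments (117 to 164), rank 120 in the list, and 1.11% of bound genes had a stronger peak. In LIF 68.1% did.

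Crtc2 (ENSMUSG00000027936.18, chr3:90254163-90264125, plus strand) had promoter peaks in 7 libraries, but at 3 separate sites. The upstream site printed above held the strongest FGFR1 promoter peak of the 10 genes in LIF (−log10 p 23.2, 21 fragments, 13.0 to 32.1). Nur77 in RA (20.3) and replicate 1 (10.4) were also there. The second, at the start (chr3:90254109-90254514), was occupied by FGFR1 in RA alone, at 14.5 in replicate 1 and 30.1 in replicate 2. The third (chr3:90258181-90258311) lay at an internal noncoding start and was shared by RXR in LIF (18.0), replicate 1 (17.9), RXR in RA (15.3) and H3.3 (16.0). Both the upstream and the internal site contained alternating runs, of 42 and 23 bp, and the start site did not. Without peaks that hold such a run, Crtc2 had promoter peaks in the 2 FGFR1 RA libraries only.

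The RSK genes had no promoter peak of RXR, Nur77 or H3.3 in RA. Rps6ka1 (ENSMUSG00000003644.17, chr4:133847290-133887797, minus strand) encodes RSK1. Its 5′ start site (chr4:133887609-133887841) held RXR in LIF (−log10 p 10.6), replicate 1 (15.5) and replicate 2 (17.8). RXR in LIF (7.80) and replicate 1 (9.93) also shared an internal start, within 1000 bp of the start of the antisense gene Gm12977. Nur77 in LIF had 1 peak 2020 bp upstream (7.67), on a 34 bp alternating run. FGFR1 in LIF, RXR in RA, Nur77 in RA and H3.3 had none. Rps6ka3 (ENSMUSG00000031309.15, chrX:159210307-159368244, plus strand) encodes RSK2. It was bound by FGFR1 in RA alone, a pattern that 3.34% of all genes had, at 1 site (chrX:159255728-159255976) with 10.1 in replicate 1 and 10.3 in replicate 2. That site lies at a cluster of 4 starts beginning 45475 bp downstream of the annotated 5′ end, and the 5′ end itself held no peak. In replicate 2, 92.5% of bound genes had a stronger peak, the lowest place of the 10 genes in that list.

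To see whether the absence of a peak carried information, summit fragments were divided by the genome-wide background of the library. At a promoter with the median local background, FGFR1 in LIF could hold up to 5 fragments, or 16.2 times its genome-wide background, without a peak being called. Atf1 stood at 96.7 times background in replicate 1 (95% interval 64.8 to 139) and 39.5 in replicate 2 (28.4 to 53.6). Atf2 stood at 60.0 (35.6 to 94.9) and 107 (88.1 to 129). Rps6ka1 stood at 53.4 (30.5 to 86.7) and 25.1 (16.4 to 36.7). For these 3 genes the intervals of both RA libraries lay above 16.2, although for Rps6ka1 in replicate 2 only just. The limit rises with the local background, which in replicate 1 was 0.921 fragments at the Rps6ka1 peak against a median of 0.631 at promoter peaks, and the fragments expected in LIF carry a counting error of their own. For Rps6ka3, at 30.01 (13.7 to 57) and 14.5 (8.10 to 23.9), they did not, and its absence in LIF was not detectable as a difference at this depth. Enrichment also varies with the efficiency of each ChIP, and the LIF library was the shallower, so state and library cannot be told apart. Genes entered this comparison because FGFR1 had a peak in RA and none in LIF, and such a choice favours RA values above the limit. No share over all genes chosen in this way was set beside them.

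**Figure D3:**
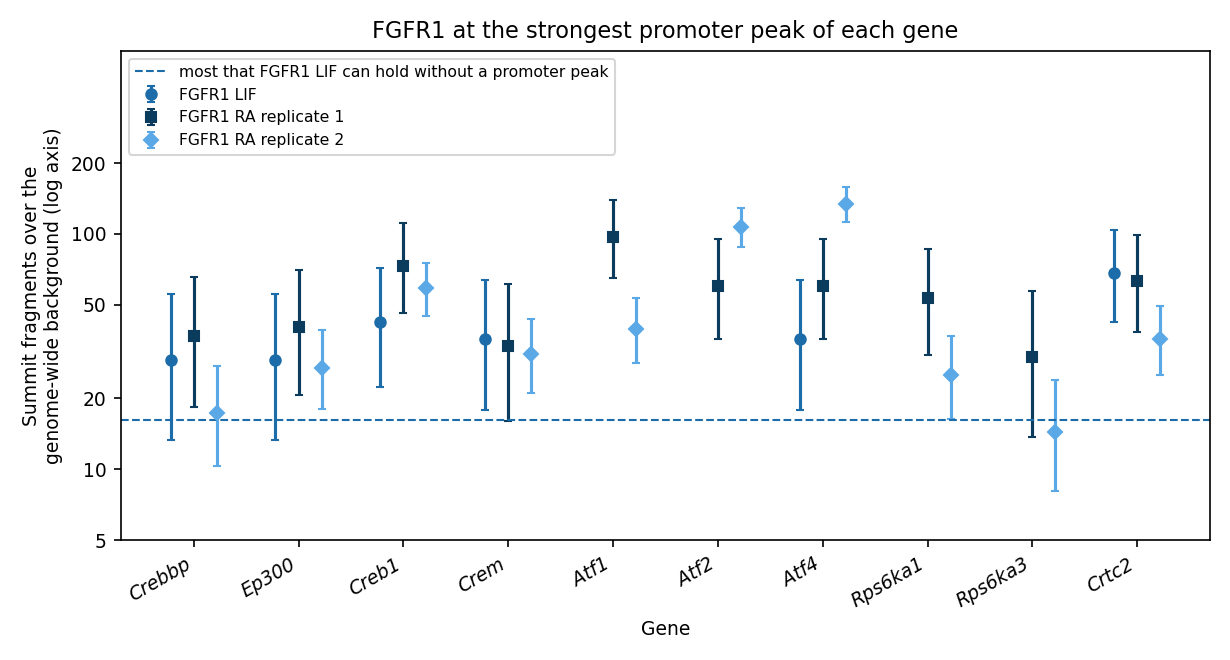
Fragments at the summit of the strongest FGFR1 promoter peak of each gene, divided by the genome-wide background of that library (log axis), for FGFR1 LIF (circles) and FGFR1 RA replicates 1 (squares) and 2 (diamonds). Bars are exact 95% Poisson intervals, and the dashed line at 16.2 is the most that FGFR1 LIF can hold without a promoter peak at the median local background of promoter peaks. Atf1, Atf2 and Rps6ka1 lie above the line in both RA libraries and have no LIF point.

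The same scale shows how far the RA replicates differed. Their intervals overlapped at 8 of 10 genes, against 87.4% of all genes with both peaks, and did not at Atf1, higher in replicate 1, and at Atf4, higher in replicate 2 (60.0, 35.6 to 94.9, against 134, 113 to 158). Between LIF and replicate 1 they overlapped at 6 of the 6 genes bound in both (96.1% over all genes), and between LIF and replicate 2 at 5 of 6 (88.9%). The exception was Atf4, with 35.6 (17.8 to 63.7) in LIF. At Creb1 the values were 42.1 (22.4 to 72.0) in LIF, 73.4 (46.0 to 111) and 58.8 (45.0 to 75.6) in RA. The strongest peak can be a different one in each library, as at Ep300 and Crtc2. At none of the 6 genes did the intervals of both RA libraries lie clear of that of LIF.

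For RXR the losses in RA could not be separated from depth. The RXR library in RA had the second lowest background of the 8 (1.87 fragments per kb against 7.09 in LIF) and could hold up to 18.4 times background at a promoter without a peak. Crebbp, Creb1, Crem and Rps6ka1 had 14.1, 21.1, 24.7 and 24.7 times background in LIF. The lower bounds of all 4 lay under 18.4, at 6.09, 10.9, 13.5 and 13.5. Nur77 in LIF had a limit of 11.5, and the RA values at Crebbp (25.6, 11.7 to 48.6), Ep300 (45.5, 26.0 to 74.0) and Crtc2 (59.8, 37.0 to 91.4) lay above it. The Ep300 and Crtc2 peaks were on alternating runs. In the other direction, Atf2 and Rps6ka1 had Nur77 peaks in LIF but not in RA, at 18.5 (7.97 to 36.4) and 23.1 (11.1 to 42.4), and both lower bounds were under the RA limit of 14.2. As for FGFR1, genes entered these comparisons through a peak in the state with the value and none in the other. No share over all such genes was set beside them.

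Of the 80 promoter peaks, 77 had their summit within 500 bp of an annotated start, 43 summits were in untranslated exons and 22 upstream of the gene. No share over the promoter peaks of all genes was set beside these counts. Many annotated starts, such as the 26 of Crem, also shorten the distance to the nearest one. The 28 sites were GC-rich, with a median of 65.2% (41.4 to 79.0%). In the 100 bp around each summit the median GC content per library was 64 to 74% at these genes and 66 to 70% over the promoter peaks of all genes.

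**Figure D4:**
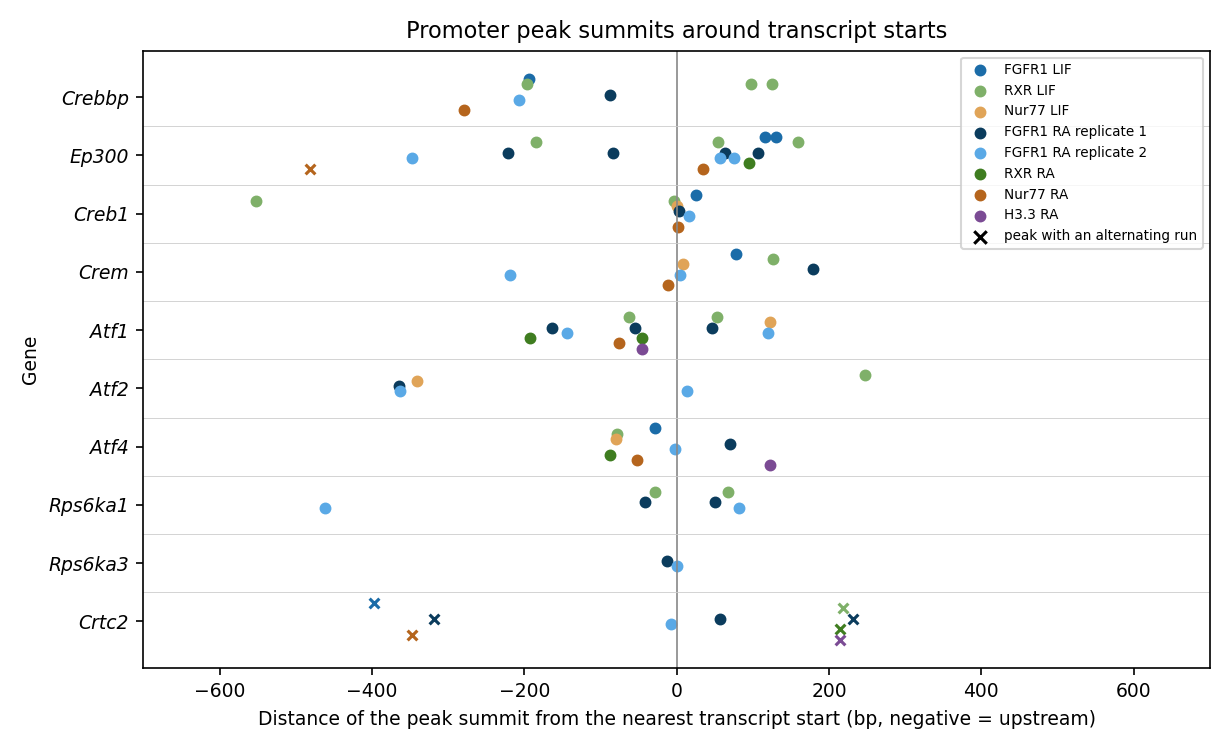
Distance in bp from each promoter peak summit to the nearest annotated transcript start of the same gene (negative values are upstream), by gene and coloured by library, with crosses for peaks that hold an alternating run of at least 20 bp. A further 2 summits, at −4991 bp (Atf2, RXR RA) and −2020 bp (Rps6ka1, Nur77 LIF), lie outside the axis. At the 5′ site of Creb1 summits gather within 25 bp of a start, and 7 of the 8 crosses drawn belong to Crtc2.

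The full CRE was not found in these sites. None of the 28 promoter sites, searched over their whole length, contained the full palindrome TGACGTCA. Neither did the 100 bp around any promoter summit of the 10 genes. In the 100 bp around promoter summits of all genes it occurred in 0.909 to 1.94% of peaks, depending on the library. The shorter TGACG, searched on both strands and also contained in the full word, lay in the 100 bp around the summit in 14 of the 80 promoter peaks, and in 12.8 to 15.4% of the promoter peaks of all genes by library. The 80 peaks pool all libraries over 28 sites, so the same word can count more than once, as at Atf1 and Crem. They are not separate observations. RefSeq promoters (GRCm38.p6, 300 bases each) were available for 7 of the 10 genes, with 9 entries. The full word was in 0 of the 9 and in 588 of 32851 promoters over all genes (1.79%). TGACG was in 3 of the 9, at Atf1, Atf4 and Rps6ka1, and in 20.8% of all. With so few promoters these shares do not separate the 10 genes from the rest. A match is a run of letters and not a measured binding site, and a lack of a match says only that the letters are not in the window.

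Gene-body peaks were fewer, 27 peaks at 14 sites, and the share of the 10 genes was above that of all genes in 4 of the 8 libraries. Their gene bodies were also longer, with a median of 37792 bp against 11315 bp over all genes, so these shares are not of like lengths. FGFR1 had one at 1 gene in LIF, Creb1 (11.2% of all genes), at 4 in replicate 1 (31.1%) and at 0 in replicate 2 (5.28%). RXR had one at 3 genes in LIF (22.9%) and 1 in RA (14.2%). Nur77 had one at 4 in LIF (20.6%) and 2 in RA (23%), and H3.3 at 2 (11.4%). Crebbp had body peaks in 5 libraries, Creb1 in 5 and Atf2 in 3.

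Most body peaks of Crebbp lay in coding exons, several of them at the same site in different libraries. Of its 14 body peaks, at 7 sites, 12 had their summit in a coding exon, while coding sequence made up 4.81% of the 109533 bp of its gene body. In the 5 libraries with these peaks, 11.5 to 16.6% of the body peaks of all genes had a coding summit. The exon site chr16:4179712-4179961 was occupied by Nur77 in LIF (−log10 p 9.0), replicate 1 (13.5) and Nur77 in RA (9.79). The exon site chr16:4117450-4117641 was occupied by RXR in LIF (8.0), replicate 1 (10.1) and Nur77 in RA (10.3). H3.3 in RA had 1 Crebbp body peak (8.27), in the neighbouring site. FGFR1 replicate 2 had no Crebbp body peak, so the exon peaks of replicate 1 were not seen again. By −log10 p the coding-exon peaks stood 58.1 to 86.7% of the way down their lists. The exception was that of replicate 1 at chr16:4179712-4179961 (31.7%). The remaining peaks lay at an intronic site, chr16:4101664-4101779, with replicate 1 (7.48) and Nur77 in RA (15.8). The latter was the highest −log10 p of all Crebbp body peaks, though between lists of unlike depth. None of the Crebbp body sites contained an alternating run.

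The body peaks of Creb1 were of another kind. Its intronic site, printed above, carries a 68 bp run of alternating purines and pyrimidines made of GTGC and GT repeats. FGFR1 in LIF had a −log10 p of 35.3 there on 25 fragments (16.2 to 36.9), well above its 14.3 at the Creb1 promoter. Nur77 reached 10.4 in LIF and 43.4 in RA, RXR 28.3 in RA and H3.3 14.4. RXR in LIF and both FGFR1 RA libraries had no peak at this place. Across the 10 genes 8 of 27 body peaks held such a run, and none of them came from an FGFR1 RA library. Over all genes, 70.2% of FGFR1 body peaks in LIF, 26.8% in replicate 1 and 1.31% in replicate 2 did. The part of the repeats in these peaks was not tested.

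Other genes of the same pathway were counted with the same windows. Of 41 genes (relatives of CREB and ATF, other CRTC, RSK and MSK genes, protein kinase A subunits, salt-inducible and calmodulin kinases, the ERK cascade and the acetyltransferases Kat2a and Kat2b), FGFR1 had a promoter peak at 16 in ESCs (19.6% of all genes), and at 36 (replicate 1, 55.9%) and 30 (replicate 2, 51.5%) in NCs. It was found in both RA libraries at 27 (42.5%) and in LIF and both RA libraries at 15 (16.5%). RXR had one at 28 in LIF (46.4%) and at 14 in RA (26.1%). For Nur77 the numbers were 15 (29.7%) and 14 (30.9%), and H3.3 had 14 (17.9%). The lower RXR count in RA was thus also that of all genes, and with lists of equal length the shares of all genes were 17.1% in LIF and 15.1% in RA.

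Of the 11 further bZIP genes, FGFR1 was at 2 in LIF, about the share of all genes (19.6%), and at 8 in both RA libraries (42.5%). Of the 4 other RSK and MSK kinases it was at 1 in LIF and at 3 in both RA libraries, while RXR (26.1%), Nur77 (30.9%) and H3.3 (17.9%) in RA were at 0, too few genes to set against these shares. Genes with FGFR1 peaks in all 3 libraries were ordered by their smallest −log10 p. Among the highest were Crtc1 (15.2, a relative of Crtc2), Kat2a (14.6, a CBP-associated acetyltransferase) and Sik2 (14.4, which phosphorylates CRTC proteins). Others were Camk2g (12.9), Map2k1 (11.5, the kinase MEK1), Prkacb (11.5, a catalytic subunit of protein kinase A) and Atf5 (11.4). This order mixes lists whose values are not comparable. In replicate 2, Sik2 (14.4), Prkacb (15.7) and Kat2a (18.6) lay under the median promoter peak of all genes (21.9). The other genes named lay above it. Crtc1 had promoter peaks in all 8 libraries, as Atf4 did. Creb3l3 and Camk2a, the genes of a liver factor and of a neuronal kinase, had no promoter peak in any library.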

How the data were processed

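ChIP-seq peak lists of 8 libraries (7 groups by sample title) were analysed. The authors aligned reads to mm10 with Bowtie 1.0, kept uniquely placed reads and called peaks per library with MACS2 at a p limit of 1e-05, without pooling. In the deposited lists the score restates the −log10 p on a larger, whole-number scale, the fold ratio is summit pileup over local background, and columns of −log10 p and −log10 q describe the summit. From the fold and the −log10 p of each peak, whole fragments and local background were solved under a Poisson tail, within 0.002 for 100% of peaks. The lowest background in a list was taken as genome-wide. Peaks were assigned to GENCODE M21 genes by an overlap of 20 bp, and computed with Python 3.11.15, SciPy 1.17.1 and pysam 0.24.0, tested on simulated data. Read totals were not given in the sources used here. No test was run, since all but 1 group had a single library. All 10 genes were named, and of 41 other pathway genes those with no promoter peak and the 8 with the highest smallest FGFR1 −log10 p, of which 1 is not reported here. The genes, the pathway list and the counts were chosen with earlier results of these data known.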

Additional observations from a re-analysis of the deposited data

How the results depend on the processing

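Over 19 counts of genes and 177 alternatives, 156 stayed within 1.5 times the reported count and 21 did not. Keeping peaks with a −log10 p of at least 10 left FGFR1 promoter peaks at 3 genes in LIF (11.8% of all genes). Nur77 was left at 1 in LIF (15.3%) and 4 in RA (18%), and RXR at 3 in RA (13%). All 10 genes stayed in each FGFR1 RA library (45.3% and 48.2%). FGFR1 in LIF and both RA libraries was left at 3 genes. Body peaks were left at 1 gene for Nur77 in LIF and 1 for H3.3. Keeping the 10634 strongest peaks of each list left promoter peaks at 4 genes for RXR in LIF (17.1%). Nur77 was left at 1 in LIF (13%) and 3 in RA (11.3%). Body peaks were left at 1 gene for RXR in LIF, 1 for Nur77 in LIF and 0 for replicate 1. FGFR1 promoter peaks in both RA libraries were left at 7 genes (16.6%), and coinciding ones at 5. FGFR1 promoter peaks were then at 6 genes in LIF, 7 in replicate 1 and 9 in replicate 2, against 18%, 20.6% and 44.6% of all genes. Windows of 1000 bp, and starts of coding transcripts alone, each gave 2 genes with a body peak for RXR in RA. Leaving out peaks with an alternating run, chosen after seeing the data, left body peaks at 0 genes for FGFR1 in LIF, 1 for Nur77 in LIF, 0 for RXR in RA, 1 for Nur77 in RA and 1 for H3.3. The −log10 p limit, the equal lists and the run filter keep fewer peaks by construction. Under the alternatives no share over all genes was computed for body peaks or coinciding FGFR1 peaks. The same holds for FGFR1 in LIF and both RA libraries. Leaving out either FGFR1 RA library gave 10 genes in RA and 6 in LIF and RA. A −log10 q of at least 2 removed no peak. No paired analysis was possible because the result comes from no test and all but 1 group had 1 library. Depth, known only through the background of each list, limits each statement that a peak was absent.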
